A study of Homo sapiens with 6 samples.

Results

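Complement components and complement regulators were examined in RNA sequencing libraries of LX-2 cells, an immortalised human hepatic stellate cell line. The group was defined by symbol as 9 genes, C3, C1R, C1S, CFB, CFI, SERPING1, CD46, CD55 and CD59, out of 60605 genes with an Ensembl identifier. All 9 were found, and 8 of them were among the 16707 genes with enough counts to be tested, CFI being the exception. All libraries came from LX-2 cells kept for 24 h in medium conditioned by HCT116, a human colorectal carcinoma line. In the control group the HCT116 cells carried an empty lentiviral vector (Vector-CM, n = 3). In the other they stably overexpressed FGFBP1 (FGFBP1-CM, n = 3), a protein that is secreted and carries fibroblast growth factors. Only the HCT116 cells were modified, no group without conditioned medium was sequenced, and 24 h was the only time. Nothing in the labels or methods says that the libraries of a group came from separate cultures, so p-values measure the spread between these libraries, which may be technical.

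Complement is a cascade of proteases and membrane-binding proteins that marks cells and particles for uptake and can lyse them. Its classical pathway starts when the C1 complex, in which the proteases C1r and C1s are carried by C1q, cleaves further components, and its alternative pathway amplifies the response through C3 and factor B. Host cells limit the cascade with soluble inhibitors such as C1 inhibitor and factor I and with the surface proteins CD46, CD55 and CD59. Hepatocytes make most of the complement in plasma, and fibroblast-like cells, stellate cells among them, also transcribe part of it.

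The promoters of the genes of the proteases C1r and factor B are shown because CFB and C1R had the lowest log2 fold changes of the 8 tested genes (given below with their values), and because genes of this system are known targets of interferon and acute-phase signaling. The sequences are the 250 bases before a RefSeq start in GRCh38.p14, read 5′ to 3′ on the strand of the gene, and capitals mark matches to the motifs named after them. For CFB the window is chr6:31945845-31946094 on the plus strand, and for C1R the windows of 2 starts are chr12:7092446-7092695 and chr12:7091894-7092143 on the minus strand.
CFB: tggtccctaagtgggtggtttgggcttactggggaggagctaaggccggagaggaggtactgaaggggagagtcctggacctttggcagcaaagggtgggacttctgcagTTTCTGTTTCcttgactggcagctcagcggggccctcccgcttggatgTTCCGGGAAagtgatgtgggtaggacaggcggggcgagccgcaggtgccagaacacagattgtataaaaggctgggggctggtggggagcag
C1R, upstream start: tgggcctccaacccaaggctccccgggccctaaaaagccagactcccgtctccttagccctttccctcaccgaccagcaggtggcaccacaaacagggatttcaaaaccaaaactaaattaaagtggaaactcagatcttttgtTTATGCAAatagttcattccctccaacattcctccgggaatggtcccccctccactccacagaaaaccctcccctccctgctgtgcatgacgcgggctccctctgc
C1R, downstream start: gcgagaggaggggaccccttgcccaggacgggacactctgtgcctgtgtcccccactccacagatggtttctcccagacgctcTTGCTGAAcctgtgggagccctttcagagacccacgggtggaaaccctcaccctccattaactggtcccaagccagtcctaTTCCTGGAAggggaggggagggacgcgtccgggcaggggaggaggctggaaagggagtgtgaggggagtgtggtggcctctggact

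The motifs searched on both strands were 2 copies of GAAA with any 2 bases between them for the interferon-stimulated response element, TTCNNNGAA for the gamma-activated site, TTGCNNAA for C/EBP factors, GCGNGGGCG for EGR factors, and the kappa B motif. They were present in 3.02%, 6.57%, 9.05%, 8.41% and 5.21%, in that order, of 35116 RefSeq promoter windows of the same length. The CFB window held TTTCTGTTTC, an interferon-stimulated response element on the opposite strand, 140 to 131 bases before the start, and the gamma-activated site TTCCGGGAA 92 to 84 bases before it. The upstream C1R window held the C/EBP match TTATGCAA on the opposite strand 106 to 99 bases before the start, and the downstream one held the C/EBP match TTGCTGAA and the gamma-activated site TTCCTGGAA. Of the 6 genes with an entry (C1R, CD46, CD55, CD59, CFB and CFI, 11 windows), CD59 also had matches, namely a gamma-activated site in 2 overlapping windows and C/EBP matches in another. No window of CD46, CD55 or CFI held a match, and no window of the 6 genes held an EGR or kappa B match. A match is a run of letters only, and binding was not measured.

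The data were deposited as counts per gene, with FPKM beside them, and total counts ranged from 14003780 to 18508113 per library, so that a count of 0 allows up to 0.158 to 0.217 CPM (counting error only). Of the 16707 genes tested with the edgeR quasi-likelihood test, 20 had an adjusted p under 0.05, or 0.12% of them. FGFBP1-CM replicate 1 stood apart from the others over the whole table, and for the complement genes as given below. The chi-squared per degree of freedom between the counts of a pair of libraries is higher the less they are alike. For FGFBP1-CM replicate 1 it was 17.7 to 20.5 against the Vector-CM libraries, and 10.5 and 9.63 against FGFBP1-CM replicates 2 and 3. Pairs without that library had 2.88 to 11.1.

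All 8 tested complement genes had lower mean levels in FGFBP1-CM than in Vector-CM, and none of the differences passed the threshold after adjustment over all genes. The log2 fold changes ranged from -0.56 for CFB to -0.11 for CD46, with a median of -0.30, against a median of 0.0032 over all tested genes. An unadjusted p under 0.05 in the direction of lower levels was found for 7 of the 8, and for 10.7% of all tested genes, while 11.1% of all genes had one in the direction of higher levels. The 3 FGFBP1-CM libraries lay below all 3 Vector-CM libraries for 6 of the 8 (C3, C1R, C1S, CFB, SERPING1 and CD55), as they did for 13.2% of all genes. RNA was taken from whole cultures, in which fewer cells that express a gene and less RNA per cell cannot be told apart.

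**Figure D1:**
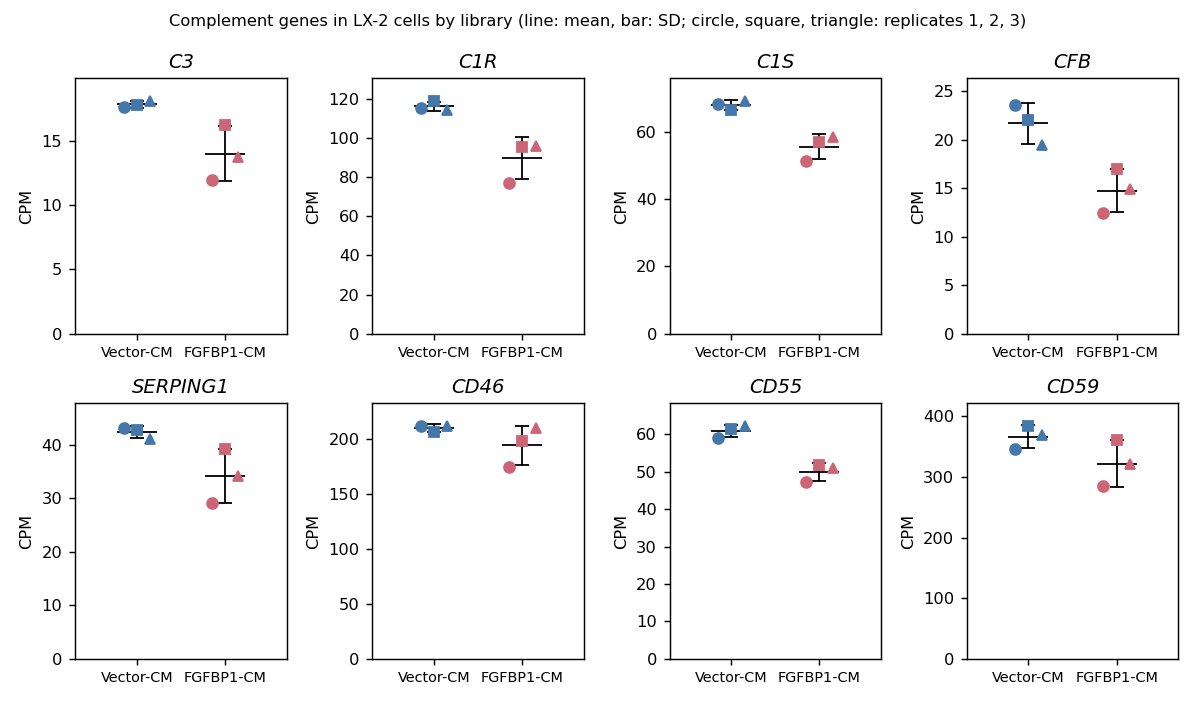
Levels of the 8 tested complement genes in CPM (counts scaled to library size, vertical axes from 0) in each library of LX-2 cells kept in Vector-CM (blue, n = 3) or FGFBP1-CM (red, n = 3), with circle, square and triangle for replicates 1, 2 and 3, a line at the mean and a bar of 1 SD. FGFBP1-CM replicate 1 has the lowest value of the 6 libraries in every panel, and the groups overlap only for CD46 and CD59.

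C1R (ENSG00000159403) encodes the first protease of the C1 complex, which activates itself and then C1s. C1R was at 115, 119 and 114 CPM in Vector-CM replicates 1 to 3 and at 77.1, 95.5 and 95.8 CPM in FGFBP1-CM replicates 1 to 3. The groups did not overlap, and FGFBP1-CM replicate 1 was set well below the other 2 FGFBP1-CM libraries. The means were 116 ± 2.27 and 89.4 ± 10.7 CPM (SD, n = 3 each), a difference of -22.9% and a log2 fold change of -0.38 (SE 0.0819) with an adjusted p of 0.0568 in edgeR.

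C1S (ENSG00000182326) encodes the protease that C1r activates and that cleaves the next components of the classical pathway. C1S was at 68.3, 66.4 and 69.1 CPM in Vector-CM and at 51.4, 57.0 and 58.5 CPM in FGFBP1-CM. All FGFBP1-CM libraries lay below all Vector-CM libraries, and the spread within each group was small. The means of 67.9 ± 1.39 and 55.6 ± 3.74 CPM (SD, n = 3 each) gave a log2 fold change of -0.29 (SE 0.0704, edgeR adjusted p = 0.068). C1S and C1R lie next to each other on chromosome 12 in opposite orientations, C1S at chr12:6988259-7071032 on the plus strand and C1R at chr12:7080199-7092607 on the minus strand (GENCODE 29, GRCh38), with 9166 bp between them. Per length, C1R exceeded C1S in every library, and the ratio of their FPKM was 1.90 ± 0.0767 in Vector-CM and 1.79 ± 0.103 in FGFBP1-CM (SD, n = 3 each), with overlapping values. Exons of C1R share 672 bp with those of C1RL on the same strand, and reads from the shared stretch may have been given to either gene or to none. Exons of C1S share 229 bp with EMG1 on the same strand, with the same limit.

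SERPING1 (ENSG00000149131, chr11:57597387-57614853, plus strand) encodes C1 inhibitor, the serpin that inactivates C1r and C1s. SERPING1 was at 43.2, 42.8 and 41.1 CPM in Vector-CM and at 29.1, 39.2 and 34.1 CPM in FGFBP1-CM. The groups did not overlap, but FGFBP1-CM replicate 2 came within a few CPM of the Vector-CM libraries. The means were 42.4 ± 1.10 and 34.1 ± 5.02 CPM (SD, n = 3 each), with a log2 fold change of -0.31 (SE 0.0967, edgeR adjusted p = 0.103). The summed FPKM of both proteases relative to that of their inhibitor was 5.21 ± 0.128 in Vector-CM and 5.12 ± 0.398 in FGFBP1-CM (SD, n = 3 each), so the ratio differed by less than the spread between libraries.

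C3 (ENSG00000125730, chr19:6677704-6730562, minus strand, 41 exons) encodes the component on which all complement pathways converge. C3 was at 17.6, 17.8 and 18.1 CPM in Vector-CM and at 12.0, 16.3 and 13.8 CPM in FGFBP1-CM. The Vector-CM libraries were close to one another, and the FGFBP1-CM libraries were spread out below them. The means were 17.8 ± 0.236 and 14.0 ± 2.15 CPM (SD, n = 3 each), a difference of -21.6% and a log2 fold change of -0.35 (SE 0.115, edgeR adjusted p = 0.117).

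CFB (ENSG00000243649, chr6:31945650-31952084, plus strand) encodes factor B, the protease of the alternative pathway, which combines with C3b to form the C3 convertase. CFB was at 23.6, 22.1 and 19.4 CPM in Vector-CM and at 12.45, 16.9 and 14.9 CPM in FGFBP1-CM. The groups did not overlap, and both were spread by about as much. The means were 21.7 ± 2.10 and 14.8 ± 2.25 CPM (SD, n = 3 each), a difference of -32.2%, and the log2 fold change of -0.56 (SE 0.121, edgeR adjusted p = 0.0568) ranked 403rd from the lowest of the 16707 genes. The FPKM of CFB relative to that of C3 was 2.14 ± 0.235 in Vector-CM and 1.85 ± 0.0395 in FGFBP1-CM (SD, n = 3 each), and the ratios of the groups overlapped. Exons of CFB share 2249 bp with AL645922.1, a gene model on the same strand, and 23 bp with C2, so its counts may be incomplete.

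CFI (ENSG00000205403, chr4:109740694-109802179, minus strand) encodes factor I, the soluble protease that degrades C3b with the help of cofactors such as CD46. CFI had 7, 3 and 5 counts in Vector-CM and 6, 10 and 5 counts in FGFBP1-CM. Both groups were near the limit of detection and overlapped, and no difference was detectable at this depth. Exons of CFI share 1562 bp with AC126283.2, a gene model on the same strand, so its counts may be incomplete.

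CD46 (ENSG00000117335) encodes membrane cofactor protein, which helps factor I to inactivate C3b and C4b on the cell surface. CD46 was at 212, 206 and 212 CPM in Vector-CM and at 175, 198 and 209.8 CPM in FGFBP1-CM. FGFBP1-CM replicate 3 lay among the Vector-CM libraries. The means were 209.9 ± 3.27 and 194 ± 17.8 CPM (SD, n = 3 each), with a log2 fold change of -0.11 (SE 0.0717, edgeR adjusted p = 0.379).

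CD55 (ENSG00000196352) encodes decay-accelerating factor, a GPI-anchored protein that takes the C3 convertases apart. CD55 was at 59.1, 61.4 and 62.1 CPM in Vector-CM and at 47.3, 51.8 and 51.0 CPM in FGFBP1-CM. The groups did not overlap and each was narrow. The means were 60.9 ± 1.60 and 50.0 ± 2.40 CPM (SD, n = 3 each), with a log2 fold change of -0.28 (SE 0.0683, edgeR adjusted p = 0.068). CD55 (chr1:207321376-207386804) and CD46 (chr1:207752057-207795513) lie on the plus strand of chromosome 1 within one cluster of complement regulators, 365252 bp apart.

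CD59 (ENSG00000085063, chr11:33703010-33736491, minus strand) encodes protectin, a GPI-anchored protein that stops the assembly of the membrane attack complex. CD59 was at 347, 384 and 368 CPM in Vector-CM and at 285, 361 and 321 CPM in FGFBP1-CM. FGFBP1-CM replicate 2 lay above Vector-CM replicate 1, so the groups overlapped. The means were 366 ± 18.6 and 322 ± 38.1 CPM (SD, n = 3 each), with a log2 fold change of -0.19 (SE 0.0825, edgeR adjusted p = 0.21). Exons of CD59 share 629 bp with AL049629.2, a gene model on the same strand, so its counts may be incomplete.

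The surface regulators CD59 and CD46 had the highest levels per length of the 9 genes, and CD55, the other surface regulator, lay below C1R and beside C1S. Over the 6 libraries, the mean FPKM was 32.5 ± 2.97 for CD59, 23.1 ± 1.38 for CD46, 17.6 ± 2.54 for C1R, 9.60 ± 0.939 for CD55, 9.52 ± 0.981 for C1S, 5.27 ± 0.701 for SERPING1, 3.83 ± 0.860 for CFB, 1.91 ± 0.274 for C3 and 0.0777 ± 0.0298 for CFI (SD, n = 6). Neighbours in this order had separate ranges except for CD55 and C1S, where CD55 was higher in 4 of 6 libraries, and for SERPING1 and CFB, where SERPING1 was higher in 6 of 6. C3, the most abundant complement protein of plasma, was thus next to last here and ranked 10884th of the 16707 tested genes by FPKM, while CD59 ranked 1218th. CFB exceeded its partner C3 in FPKM in every library.

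**Figure D2:**
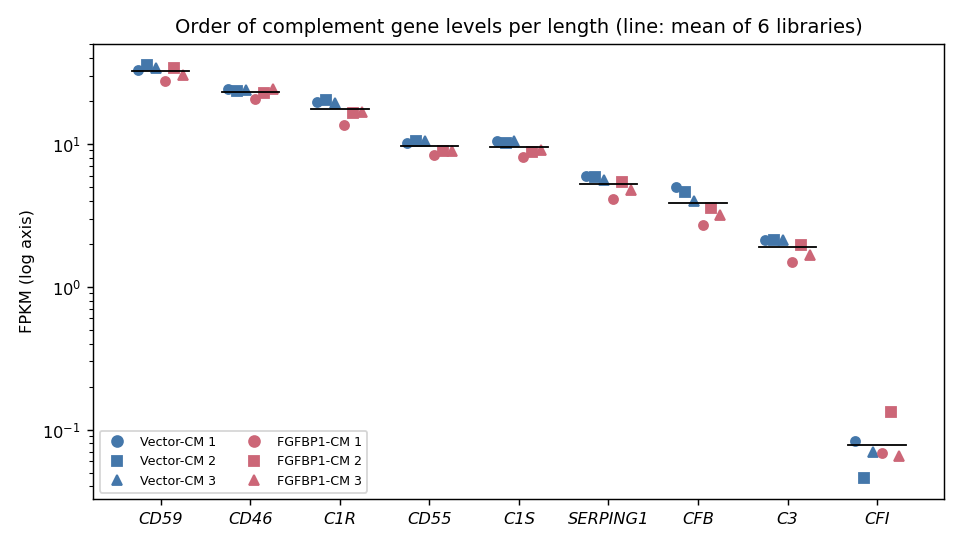
Level of the 9 complement genes in FPKM, which scales fragments by gene length and library depth (vertical log axis), in each library (blue, Vector-CM; red, FGFBP1-CM; circle, square and triangle for replicates 1 to 3), with a line at the mean of 6 libraries. The genes run from CD59 at 32.5 FPKM to C3 at 1.91 FPKM, and CFI lies apart at 0.0777 FPKM.

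FGFBP1-CM replicate 1 was the lowest of the 6 libraries for each of the 8 tested genes. That library stood apart over the whole table as well. The share of all genes that were lowest in it is not given here, so the pattern cannot be called particular to complement genes. On the log2 scale, the median difference of the 8 genes from the Vector-CM mean was -0.47 in FGFBP1-CM replicate 1, -0.18 in replicate 2 and -0.27 in replicate 3. Without FGFBP1-CM replicate 1, the 8 genes remained lower in FGFBP1-CM, with log2 fold changes of -0.45 for CFB, -0.28 for C1R, -0.24 for C3 and CD55, -0.23 for C1S, -0.21 for SERPING1, -0.10 for CD59 and -0.04 for CD46. None of them then passed the threshold in edgeR, the lowest adjusted p being 0.0617.

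The direction held for each of the 8 genes under all 16 other settings of the processing, but the number past the threshold did not. With FGFBP1-CM replicate 2 left out, 6 genes passed (C3, C1R, C1S, CFB, SERPING1 and CD55), when 2.77% of all genes passed as lower. With FGFBP1-CM replicate 3 left out, 3 passed (C1R, C1S and CFB), against 0.775% of all genes. With no filter on low counts, 5 passed (C1R, C1S, CFB, SERPING1 and CD55), against 1.44% of 38002 genes. That set also holds the genes with too few counts for the reported test, which lowers the share. The Wald test of DESeq2 called 4 (C1R, C1S, CFB and CD55), against 2.59% of the genes to which it gave an adjusted p. A correction for GC content and gene length, chosen after the data were seen, left CFB and CD55 past the threshold (edgeR adjusted p of 0.0489 for both), against 0.383%, and the same correction with the replicate number as a block left CD55 alone, against 0.652%. The other settings called none of the 8.

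**Figure D3:**
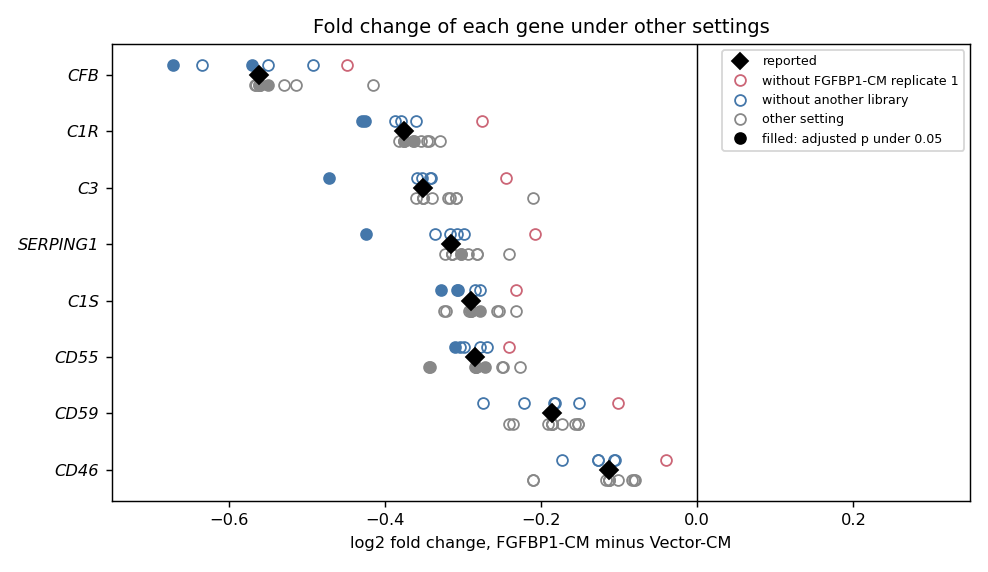
Log2 fold change (FGFBP1-CM minus Vector-CM, horizontal axis) of the 8 tested complement genes as reported (diamond) and under 16 other settings (circles, filled where the adjusted p was under 0.05; red without FGFBP1-CM replicate 1, blue without another library, gray otherwise). Every circle lies left of 0, and CFB spans -0.67 to -0.42.

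The log2 fold changes of the whole table varied with GC content. Over the tested genes, Spearman's rho of log2 fold change with GC content was -0.21, and it was -0.02 after the correction (a description across genes, which are not replicates). The GC content of the 8 genes ran from 37.7% for CD46 to 57.2% for SERPING1, around a median of 47.7% for all tested genes. The correction moved C3 from -0.35 to -0.31 and CD46 from -0.11 to -0.21.

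Marker genes were summed in FPKM to describe the cells. The 12 stellate cell markers summed to 617 to 661 FPKM in Vector-CM and to 487 to 581 FPKM in FGFBP1-CM, while LRAT, the enzyme that stores retinol in quiescent stellate cells, was at 0 and DES at 0 to 4 counts in all libraries. Most of that sum was VIM (mean 457 FPKM over 6 libraries) and SPARC (94.8 FPKM), which many mesenchymal cells express. Their log2 fold changes were -0.26 and -0.50. TAGLN, COL3A1 and COL1A2 had log2 fold changes of -0.62, -0.41 and -0.32. PDGFRB, ACTA2, PDGFRA and COL1A1 had -0.19, -0.18, -0.10 and -0.09, and both RGS5 rows had positive ones. Of the stellate cell markers that were tested, 9 of 11 rows (RGS5 has 2 identifiers) were lower and none passed the threshold in edgeR. An unadjusted p under 0.05 in edgeR was found for 4 of the 11, all lower, against 10.7% of all tested genes. The 16 markers of hepatocytes, the main source of plasma complement, summed to 12.8 to 13.6 FPKM in Vector-CM and to 7.86 to 9.86 FPKM in FGFBP1-CM. Most of that sum was SERPINA1 and CPS1, with log2 fold changes of -0.53 and -0.04 (edgeR adjusted p of 0.069 and 0.771). All 16 markers had lower means, and 4 of the 7 tested (APOB, ALB, AFP and FGA) fell at an edgeR adjusted p under 0.05. Of all 16707 tested genes, 8235 had a lower level in FGFBP1-CM and 11 were lower at that threshold. The 4 genes had low levels, with Vector-CM means from 0.933 CPM for FGA to 3.43 CPM for ALB. ALB was at a mean of 0.611 CPM in FGFBP1-CM. Macrophage markers summed to 2.01 to 2.35 and 1.89 to 2.96 FPKM, with CD163, VSIG4, C1QA, C1QC and TYROBP at 0. Endothelial markers summed to 2.26 to 2.68 and 2.18 to 2.61 FPKM with CLEC4G at 0, and colorectal epithelial markers to 1.17 to 1.62 and 1.07 to 1.28 FPKM with CEACAM5 and TFF3 at 0. The sums of the hepatocyte and the stellate cell markers were thus lower in FGFBP1-CM together with the complement genes, and their part in these differences was not tested.

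The rest of the complement system was covered by a list of 48 further genes, of which 12 were tested. Of these, 6 were lower and 6 higher in FGFBP1-CM, the median log2 fold change was -0.01, and none passed the threshold in edgeR. An unadjusted p under 0.05 was found for 2 of the 12, both lower, which is near the share of 10.7% over all tested genes. C1RL, counted among the higher ones, had a log2 fold change of -0.094 without FGFBP1-CM replicate 2. The remaining 36 had at most 18 counts in a library, and 13 of them had none. C1q was nearly absent as RNA, with C1QA and C1QC at 0, so of the C1 complex the proteases were transcribed and these carrier chains were not detected. C7, C8A and C8B of the membrane attack complex were also at 0.

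Among soluble proteins, vitronectin and clusterin keep the membrane attack complex in solution. VTN was at 2.40, 2.53 and 2.16 CPM in Vector-CM and at 1.74, 1.95 and 1.41 CPM in FGFBP1-CM, with a log2 fold change of -0.47 (SE 0.219, edgeR unadjusted p = 0.0487 and adjusted p = 0.227). CLU was far more abundant, at 137 ± 6.65 and 129.6 ± 7.82 CPM (SD, n = 3 each), with a log2 fold change of -0.08 (edgeR adjusted p = 0.549). C5, the component that starts the lytic stage, had mean levels of 8.17 ± 1.11 (Vector-CM) and 9.72 ± 1.59 CPM (FGFBP1-CM; log2 fold change 0.25, SE 0.148, edgeR adjusted p = 0.339), and the log2 fold change was 0.11 without FGFBP1-CM replicate 1 and 0.16 without Vector-CM replicate 2. C2, the classical pathway counterpart of factor B and its neighbour on chromosome 6, stayed within its spread at 2.42 ± 0.0989 and 2.36 ± 0.0849 CPM, where CFB did not overlap between the groups. C1RL, which encodes a protease related to C1r and shares exon sequence with C1R, was at 22.2 ± 1.43 and 22.4 ± 2.90 CPM, with a log2 fold change of 0.01. MASP2, a protease of the lectin pathway, had a log2 fold change of 0.44 (SE 0.256), and COLEC11, a collectin that recognises sugars, had one of -0.34 (SE 0.362), both from means under 2 CPM. The size of both fold changes varied when a library was left out. Without FGFBP1-CM replicate 1, MASP2 was at 0.22 and COLEC11 at -0.070, and without FGFBP1-CM replicate 2, COLEC11 was at -0.80. For MASP2 the FGFBP1-CM libraries lay above all Vector-CM libraries, and for COLEC11 the groups overlapped.

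Among receptors, ITGAX, a subunit of complement receptor 4, was at 16.8, 13.6 and 13.1 CPM in Vector-CM and at 11.2, 11.5 and 11.3 CPM in FGFBP1-CM. The groups did not overlap, and the log2 fold change was -0.36 (SE 0.118, edgeR unadjusted p = 0.00877 and adjusted p = 0.116), or -0.23 without Vector-CM replicate 1. ITGB2, the gene of the other subunit, had 4, 5 and 6 counts in Vector-CM and 2, 5 and 3 in FGFBP1-CM, too few to be tested. C3AR1, the receptor of the C3a fragment, had a log2 fold change of 0.46 (SE 0.269), from 0.953 to 1.30 CPM, and its groups did not overlap, with FGFBP1-CM above. CD93 had one of -0.38 (SE 0.281), or -0.10 without Vector-CM replicate 2 and -0.22 without FGFBP1-CM replicate 3, and C1QBP, a mitochondrial protein that binds C1q, had one of 0.08 (SE 0.0714), and none of these 3 passed the threshold in edgeR.

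**Figure D4:**
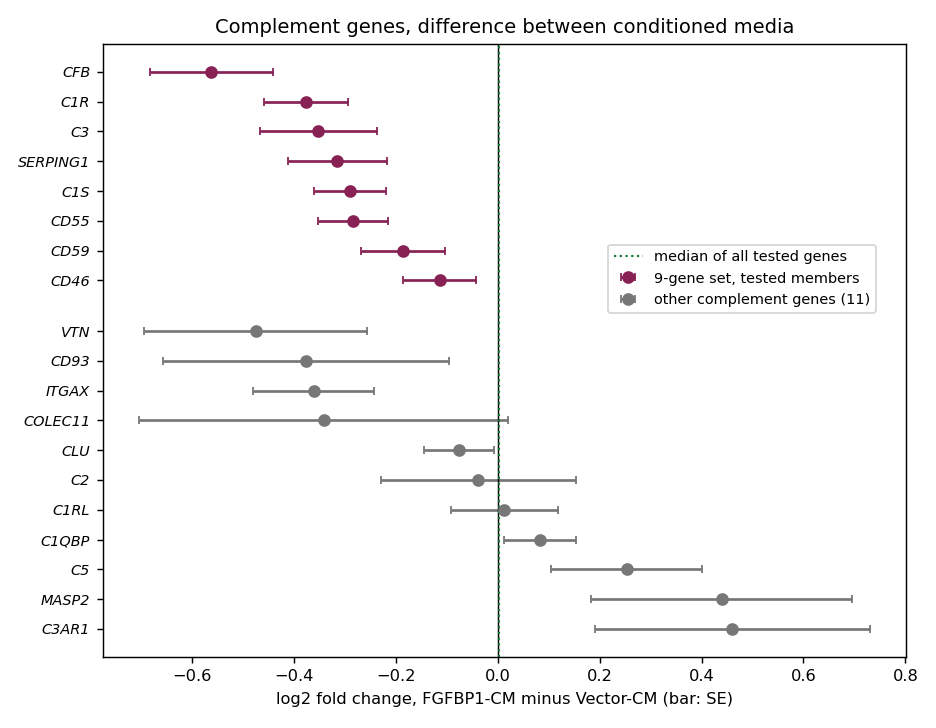
Log2 fold change (FGFBP1-CM minus Vector-CM, horizontal axis, bars 1 SE) of the 8 tested genes among the 9 (purple) and of 11 of the other complement genes that were tested (gray), with a dotted line at the median of all tested genes. The 8 genes lie between -0.56 and -0.11, and the 11 others lie on both sides of 0, from -0.47 for VTN to 0.46 for C3AR1.

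C3, CFB and SERPING1 are known to respond to inflammatory cytokines and interferons, so receptors and transcription factors of those pathways were listed as well. Of 20 such genes, 12 were lower and 8 higher in FGFBP1-CM, their median was -0.02 on the log2 scale, and none was past the threshold in the edgeR test as reported. An unadjusted p under 0.05 was found for 6 of the 20 as lower and 2 as higher, where all tested genes gave 10.7% and 11.1%. The count of higher genes was near the share of the whole table, and that of lower genes was above it. The FGFBP1-CM libraries lay below all Vector-CM libraries for 6 of the 20, against 13.2% of all genes. They lay above them for 1, against 2141 of all 16707 genes. IL6ST, the shared signaling receptor of the IL-6 family, was at 459 ± 67.2 (Vector-CM) and 584 ± 33.1 CPM (FGFBP1-CM; SD, n = 3 each; log2 fold change 0.35, SE 0.0926, edgeR adjusted p = 0.0814). IRF1, a transcription factor of the interferon response, was at 50.7 ± 0.449 and 40.3 ± 5.21 CPM (log2 fold change -0.34, SE 0.0877, edgeR adjusted p = 0.078). TNFRSF1B, a receptor of tumor necrosis factor, was at 74.2 ± 1.28 and 59.5 ± 3.00 CPM (log2 fold change -0.32, SE 0.0666, edgeR adjusted p = 0.0568). IRF1 and TNFRSF1B did not overlap between the groups, with FGFBP1-CM below, and IL6ST did not overlap with FGFBP1-CM above. All 3 passed the threshold with no filter on low counts and in DESeq2. With no filter, 549 of 38002 genes were called lower and 833 higher. DESeq2 called 282 lower and 334 higher, of 10876 genes with an adjusted p. IRF1 and TNFRSF1B also passed without FGFBP1-CM replicate 2 (edgeR adjusted p of 0.0133 and 0.0301), when 2.77% of all genes passed as lower. Without FGFBP1-CM replicate 3, TNFRSF1B passed (edgeR adjusted p of 0.0426), against 0.775% of all genes.

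Of 15 acute-phase genes that answer to the same cytokines, only 2 had enough counts to be tested, and they differed in direction. SAA1, which encodes serum amyloid A, had means of 0.944 (Vector-CM) and 0.433 CPM (FGFBP1-CM), with a log2 fold change of -1.12 (SE 0.322, edgeR adjusted p = 0.0912). That value rests on few counts, 17, 13 and 14 in Vector-CM and 7, 7 and 8 in FGFBP1-CM. PTX3, a pentraxin that binds C1q, was at 135 ± 8.49 and 140.3 ± 10.4 CPM (SD, n = 3 each), with a log2 fold change of 0.06. CD55 and CD59 need a GPI anchor to reach the surface, and of the 26 tested genes for anchor synthesis 15 were lower and 11 higher, with a median log2 fold change of -0.04. None passed the threshold in the edgeR test as reported, and the log2 fold change with the largest size was that of PIGW, an acyltransferase of the pathway, at 0.57 (SE 0.140, edgeR adjusted p = 0.068). PIGW passed with no filter on low counts and in DESeq2, where 833 and 334 of all genes were called higher. It also passed without FGFBP1-CM replicate 2 or 3 (edgeR adjusted p of 0.0325 and 0.0386). Those fits called 409 of 17133 and 269 of 17155 genes higher. PIGM and PIGV, mannosyltransferases of the same pathway, had log2 fold changes of 0.33 and 0.31, and PIGM was at 0.18 without FGFBP1-CM replicate 1.

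The profile of C3 over the 6 libraries was compared with those of 9757 genes with a symbol and a mean of at least 10 CPM, as the root mean square difference of centred log2 CPM. Among the nearest 5 were FDPS (0.0162), MAMDC2 (0.0222), MAN2B1 (0.0254) and PDIA5 (0.0311), each with FGFBP1-CM replicate 1 lowest. Their log2 fold changes ran from -0.39 for MAN2B1 to -0.33 for FDPS. Among the complement genes, SERPING1 was nearest to C3, with a difference of 0.0389 and 14th among the candidates, followed by C1R at 0.0746 (151st), while CD46 was farthest at 0.156 (1610th). These are likenesses over 6 libraries that share depth and composition, and no test was made.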

How the data were processed

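RNA sequencing of 6 libraries was used. The authors aligned reads with HISAT2 2.0.5 and counted them per gene with featureCounts 1.5.0-p3, per the labels' processing notes, which also name DESeq2 1.16.1, edgeR and the build hg18. The annotation and strandedness are not given in the sources used here, and the sources describe both poly(A) selection and removal of ribosomal RNA. The values are raw counts per gene and FPKM as deposited by the authors. Because strand was not stated, reads of overlapping genes may be split, lost or given to one of them. Columns with the authors' own group comparisons (fold changes and p-values) were not used.

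For the counts, edgeR 4.0.16 was run in R 4.3.3 with the gene filter of filterByExpr and TMM scaling, and FGFBP1-CM was compared with Vector-CM by the quasi-likelihood F-test over all 6 libraries, with Benjamini-Hochberg adjustment over 16707 genes and a threshold of 0.05. CPM are relative to the TMM-scaled library size. The SE of a log2 fold change is its absolute value over the root of the F statistic. An exact permutation test of 3 against 3 libraries cannot go below a p of 0.1 and was not used. Total counts of 14003780 to 18508113 per library set the precision, and no pair of libraries agreed within sampling noise. The procedure was tested on simulated counts. Gene positions are those of GENCODE 29 for the same Ensembl identifier (96.3% matched) and may differ from those used when reads were counted. Promoters are those of RefSeq for GRCh38.p14 and were matched by symbol for 6 of the 9 genes.

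Named genes were the 9 complement genes, every tested gene of the list of other complement genes, from 3 further lists the genes past the threshold and the 3 tested genes with the largest log2 fold change by size, and the 5 genes nearest to C3. Some genes that this rule names are not reported here. The genes, lists and tests were chosen with earlier results of these data known. The alternatives tried were scaling by RLE or by library size alone, no filter or one at a mean of 1 CPM, DESeq2 1.42.0 (Wald test), limma 3.58.1 on log2 FPKM with a pseudocount of 1 or 0.1, a block on the replicate number, and leaving out each library. A correction that subtracted a loess fit (span 0.3) on GC content and length from each library, for the 98.2% of tested genes with both values, was added after the data were seen, with and without the block.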

Additional observations from a re-analysis of the deposited data

How the results depend on the processing

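Each of the 8 tested complement genes was lower in FGFBP1-CM under all 16 alternatives, and what varied was the number past the threshold. The reported test called 20 genes and 0 complement genes. Counts of all genes were 38 with RLE scaling, 1382 with no filter on low counts, 11 with a mean of at least 1 CPM, 616 with DESeq2, and 1 with limma at either pseudocount, and 17 with library size only, which moved the median log2 fold change of all genes to 0.04. Complement genes called were 5 with no filter and 4 with DESeq2. Leaving out 1 library gave 4 to 883 genes and 0 to 6 complement genes, the highest of both without FGFBP1-CM replicate 2. The GC and length correction gave 123 genes and 2 complement genes, and with the replicate block 163 and 1.

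The labels give replicates only as numbers, so whether same-numbered libraries are paired is not known. The correlations of the deviations of same-numbered libraries from their group means were -0.12, -0.02 and 0.15 over 15033 genes. Libraries with different numbers were not compared in this way, so these values cannot decide it. With the replicate number as a block, 90 genes and 0 complement genes were called, the lowest adjusted p of a complement gene in edgeR being 0.0569.

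Of the values for single genes, 387 kept their direction and side of the threshold, 34 passed it with the same direction, and 2 changed sign. These were C1RL at -0.036 without Vector-CM replicate 3 and -0.094 without FGFBP1-CM replicate 2, and leaving out 1 library gave a range of -0.094 to 0.081 for C1RL. The cause of these shifts was not tested. Depth limited CFI, whose counts may also be incomplete because of shared exons, and the complement genes with few counts. With 3 libraries a group, the edgeR adjusted p of C1R and CFB (0.0568) lay close to the threshold. Many other genes had the same adjusted p in that test, TNFRSF1B and TAGLN among them, so this closeness is not particular to complement genes.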
